A study of Homo sapiens with 36 samples.

Results

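NPTX1, CUZD1, PPP1R1B, CA11 and TJP3 were the 5 named genes with the largest rises between day 0 and day 1 when human embryonic stem cells were taken through differentiation. They were selected on the difference between the day 1 and day 0 arrays, out of 34687 gene symbols in the authors' table, of which 22815 were measured above background often enough to be tested. All 5 passed that filter, for which 3 or more arrays had to show a detection p under 0.05. The day 1 and day 0 values are therefore a description of how the genes were chosen, and the question followed here is what became of each gene between days 3 and 11.

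Expression was measured on 36 Illumina beadchips, in 12 groups of 3 arrays, with RNA from WA09, an established line of human embryonic stem cells, used here at passages 32 to 50. The BE cultures, labelled melanocyte, received 100 nM LDN-193189, 10 µM SB431542, 3 µM CHIR 99021 (a GSK3 inhibitor), 25 ng/ml BMP4 and 100 nM EDN3 and were collected on days 8 and 11. The NC cultures, labelled neural crest, received the first 3 of these compounds, and the DSi cultures, for dual SMAD inhibition, received LDN-193189 and SB431542 alone, both with collections on days 3, 6, 8 and 11. Cells of day 1 and day 0 carry no condition in the labels, which name LDN-193189 and SB431542 for both without saying whether the day 0 cells had received them. All groups share the cell line, its growth on mouse embryonic feeder cells in medium with 6 ng/ml FGF2 and plating on matrigel, so every value comes from 1 genetic background. One DSi array of day 3, replicate 1, is titled without the suffix found in the remaining DSi titles. The labels do not say whether replicates were separate cultures, and the p-values then reflect no more than the variation among these arrays, part of which could be technical.

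Arrays had mean signals of 214.7 to 462.5, with 33.9 to 41.7% of 47323 probes detected, and 31 of 36 arrays were closest to an array of their own group. The labelled cell types were checked by summed normalized signals of marker lists. Pigment markers summed to 16229 to 18893 in BE at day 11, against 2725 to 4285 in NC and 4883 to 8688 in DSi. Neural crest markers summed to 3372 to 6869 in every NC or BE group from day 6 on, against 661 to 1163 in DSi over the same days. Anterior neural markers summed to 8649 to 16261 in DSi from day 6, against 550 to 694 at days 0 and 1. Pluripotency markers summed to 18459 to 22350 at day 3, against 19689 to 24623 at days 0 and 1, but core members were lower at day 3: NANOG averaged 4.61 in NC and 4.71 in DSi, above background on no array, against 9.48 at day 0, and POU5F1 averaged 8.15 in NC and 8.27 in DSi, against 10.27 at day 0. These are bulk samples, in which fewer cells of a type and less RNA per cell cannot be told apart.

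The 5 genes belong to no common pathway. NPTX1 encodes neuronal pentraxin 1, a secreted protein that gathers AMPA-type glutamate receptors at synapses. CUZD1 encodes a protein with CUB and zona pellucida domains, known from glandular epithelia such as the pancreas. PPP1R1B encodes DARPP-32, which inhibits protein phosphatase 1 once protein kinase A has phosphorylated it and is best known from neurons that receive dopamine. CA11 encodes a secreted relative of the carbonic anhydrases without catalytic activity, and TJP3 encodes ZO-3, a scaffold protein under the tight junctions of epithelial cells. LDN-193189 blocks receptors for bone morphogenetic proteins and SB431542 those for activin, Nodal and TGF-beta, and blocking both turns pluripotent cells towards neural ectoderm.

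RefSeq promoter windows (GRCh38.p14) were at hand for CUZD1 and TJP3, and the bases before each annotated start are shown because the 2 genes were high together at days 1 and 3 and parted afterwards. The CUZD1 window is chr10:122845858-122846107 on the minus strand, and the TJP3 windows, for 2 annotated starts, are chr19:3708134-3708383 and chr19:3721487-3721736 on the plus strand. Capitals mark exact matches, on either strand, to the motifs TATAAA (the TATA box), CCAAT (the CCAAT box), GGGCGG (the GC box), CAGAC (SMAD3 and SMAD4), GGCGCC (SMADs of the BMP branch), CTTTGA (TCF and LEF), ACAATG (SOX proteins), TAATCC (OTX proteins), CAGGTG (ZEB and SNAI proteins) and TGACGTCA (CREB).
CUZD1: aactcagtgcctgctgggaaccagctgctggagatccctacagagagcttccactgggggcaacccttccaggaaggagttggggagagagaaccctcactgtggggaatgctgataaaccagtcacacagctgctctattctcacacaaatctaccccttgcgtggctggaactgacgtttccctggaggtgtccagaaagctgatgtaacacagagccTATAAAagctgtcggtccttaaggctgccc
TJP3, first start: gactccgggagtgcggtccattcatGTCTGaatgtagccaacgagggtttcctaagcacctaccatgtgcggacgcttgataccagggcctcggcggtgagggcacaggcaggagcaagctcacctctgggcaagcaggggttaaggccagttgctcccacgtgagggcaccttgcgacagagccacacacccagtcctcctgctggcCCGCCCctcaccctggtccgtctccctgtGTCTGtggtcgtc
TJP3, second start: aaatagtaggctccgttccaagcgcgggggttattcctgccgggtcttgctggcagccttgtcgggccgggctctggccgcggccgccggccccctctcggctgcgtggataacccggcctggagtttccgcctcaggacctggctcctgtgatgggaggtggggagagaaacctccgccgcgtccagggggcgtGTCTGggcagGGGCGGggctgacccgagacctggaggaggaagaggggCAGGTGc
The CUZD1 window held 1 match, to TATAAA at position -30 counted from the start, a motif found in 10.7% of 35116 windows of the same length. Both TJP3 windows held GGGCGG, at positions -42 and -45, which is present in 42.6% of windows, and CAGAC, a motif bound by SMAD3 and SMAD4, which is present in 38.0%. The second TJP3 window also held CAGGTG, at position -7, present in 17.5% of windows. GC content was 54.0% for CUZD1 and 62.8 and 69.6% for the TJP3 windows, against a median of 58.0% over all windows. A match says only that the letters are there, and no motif was shared by the CUZD1 window and those of TJP3.

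Values from here on are log2 normalized signals, given per array in the order of replicates 1, 2 and 3, unless a sentence says that they are differences. NPTX1 stood at 12.08, 10.19 and 13.00 on the day 1 arrays, against 4.62, 4.57 and 5.87 on the day 0 arrays, of which replicate 3 alone was above background. CUZD1 stood at 10.66, 9.31 and 10.64 at day 1, against 5.65, 5.75 and 5.88 at day 0, where it was detected on all 3 arrays. PPP1R1B stood at 8.62, 7.93 and 8.25 at day 1, against 5.22, 4.72 and 5.23 at day 0, detected on 1 array. No day 1 value of these genes overlapped a day 0 value. CA11 stood at 8.22, 7.75 and 8.25 at day 1, against 5.03, 4.89 and 5.24 at day 0, detected on 1 array, and TJP3 at 8.88, 7.94 and 8.49, against 5.69, 5.54 and 5.72 on 3 detected day 0 arrays. These 2 also kept the groups apart. All 5 genes were chosen on the difference between these same arrays, which favours such a separation, so it describes the choice only.

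The log2 differences, day 1 minus day 0, were 6.74 for NPTX1, 4.44 for CUZD1, 3.21 for PPP1R1B, 3.02 for CA11 and 2.79 for TJP3. On the normalized signals and probes used here these were ranks 1 to 5 among all genes tested. The next named genes were UNC5A (2.77), a netrin receptor, DLL1 (2.65), a Notch ligand, GADD45G (2.64), RHBDL3 (2.48) and BCL6 (2.45), so TJP3 lies just inside the limit and UNC5A just outside it. Replicate 2 was the lowest day 1 array for each of the 5 genes, and it also had the lowest mean signal of the 3, 233.6, against 362.9 for replicate 1 and 276.9 for replicate 3. Without that array the difference of NPTX1 came to 7.52 and that of TJP3 to 3.04. On the values of the authors' table, which average the probes of a gene, the same differences were 3.29, 3.20, 0.97, 1.62 and 1.69 in the order above. The ranks given above do not refer to those values. With no background correction and the probes used here they were 5.07, 3.24, 1.82, 1.66 and 1.72. With the mean of the probes that passed the filter, NPTX1 gave 3.50 and PPP1R1B 1.70. Over the same day Nodal targets summed to 258 to 302 at day 1, against 3755 to 8495 at day 0. Markers of fibroblasts and muscle summed to 8956 to 11875 at day 1, against 18227 to 19458 at day 0, with 5 of 6 listed markers detected in both groups and COL3A1 at background. The part of these shifts in the 5 genes' values was not tested.

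**Figure D1:**
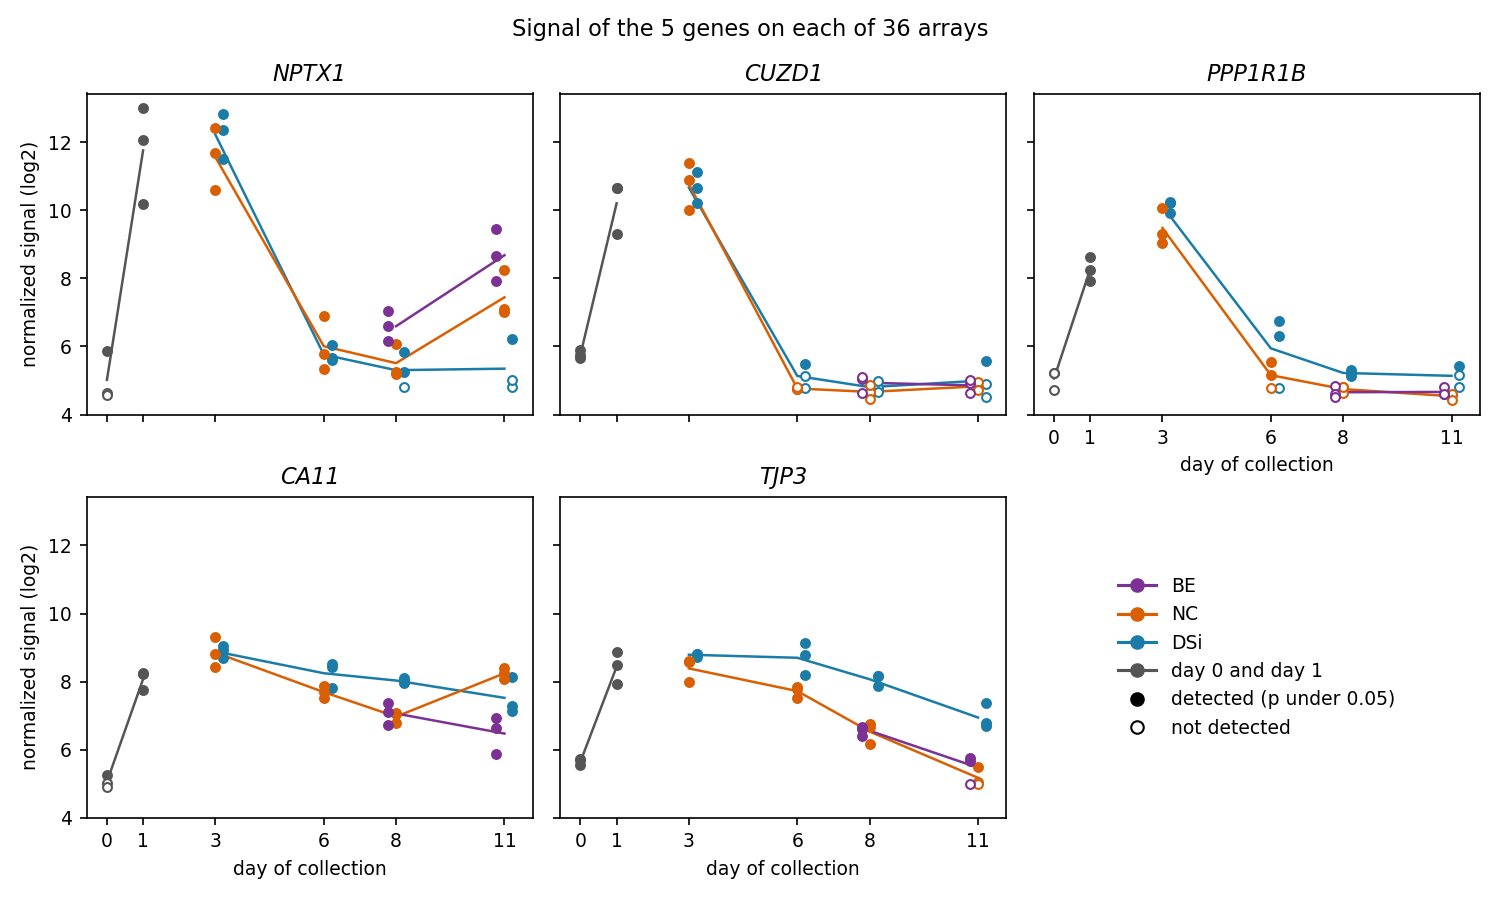
Log2 normalized signal (vertical axis) of the 5 genes on each array by day of collection (horizontal axis); points are arrays, lines join group means, and open points were not detected. NPTX1, CUZD1 and PPP1R1B fall away between days 3 and 6, whereas CA11 is detected on all 24 arrays from day 6 on.

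The 5 genes then divided by how long they stayed high. Between days 3 and 6, NPTX1, CUZD1 and PPP1R1B fell steeply in both conditions. CA11 and TJP3 fell by smaller amounts in NC and did not pass the test in DSi. Both NC calls and the CA11 result in DSi depended on the processing. Whether this step differed between NC and DSi was not tested. In DSi, 3 of the 5 genes were lower at day 6 than at day 3 and 0 higher, where 14.5% of all 22815 genes passed the test in either direction (limma, Benjamini-Hochberg adjusted p under 0.05). In NC all 5 were lower at day 6 than at day 3, with a background of 22.5%. By day 11 all 5 were lower than at day 3 in DSi, where 21.2% of genes were called, and 4 of 5 in NC, where 26.4% were called.

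The steps after day 6 called fewer of them. From day 6 to day 8 none of the 5 passed the test in DSi (0.964% of all genes called, unadjusted p 0.013 for TJP3 and 0.0241 for PPP1R1B), and 1, TJP3, was lower in NC (5.22% called). From day 8 to day 11, 1 was lower in DSi (6.87% called), 2 were higher and 1 lower in NC (7.86% called), and 1 was higher and 1 lower in BE (9.63% called). Between conditions none differed in NC against DSi at day 3, when 0.482% of all genes did. At day 6, 1 of 5 was lower in NC than in DSi (5.39% called), at day 8, 2 were lower (6.70% called), and at day 11, 2 were higher and 1 lower (11.1% called). BE differed from NC in 0 of the 5 at day 8 (1.86% called, lowest unadjusted p 0.0293, for NPTX1) and in 1 at day 11 (8.75% called). Against DSi, 2 were lower in BE at day 8 (10.5% called), and at day 11, 1 was higher and 2 lower (16.5% called). The change from day 3 to day 11 itself differed between NC and DSi for 2 of the 5, NPTX1 and TJP3, where 5.44% of all genes did.

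NPTX1, the gene with the largest first-day difference, was near its peak at day 3 and close to its day 0 values by day 6, and it was higher again in NC and BE at day 11. In NC it stood at 10.61, 12.41 and 11.67 at day 3, 5.79, 6.90 and 5.33 at day 6, 5.19, 5.26 and 6.08 at day 8, and 7.0, 7.09 and 8.23 at day 11. In DSi the values were 11.50, 12.35 and 12.82 at day 3, 5.59, 6.03 and 5.66 at day 6, 4.82, 5.83 and 5.26 at day 8, and 4.82, 6.22 and 5.01 at day 11, when 1 of 3 arrays was above background. The day 3 and day 6 arrays did not overlap in either condition. From day 3 to day 6, the log2 signal of NPTX1 fell by 6.46 in DSi (88.1-fold, SE 0.48, adjusted p = 4.8e-14) and fell by 5.55 in NC (47.0-fold, SE 0.48, adjusted p = 2.764e-12). On the values of the authors' table these falls were smaller, with differences of -3.68 in DSi and -2.98 in NC, both past the test.

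In BE, NPTX1 stood at 6.59, 6.16 and 7.03 at day 8 and at 8.66, 7.92 and 9.46 at day 11, so that each day 11 array lay above each day 8 array and above every DSi array of days 6 to 11. The log2 difference was 2.09 for BE at day 11 against day 8 (SE 0.48, adjusted p = 0.002277) and 1.93 for NC at day 11 against day 8 (SE 0.48, adjusted p = 0.005745). At day 11 BE exceeded DSi by 3.33 (10.1-fold, adjusted p = 6.106e-07) and NC exceeded DSi by 2.09 (4.27-fold, adjusted p = 0.001489), with DSi above background on 1 array. BE and NC themselves differed by 1.24 at day 11 (adjusted p = 0.1164) and their arrays overlapped. From day 3 to day 11 the change in NC was 2.76 less negative than that in DSi (SE 0.68, adjusted p = 0.006467). NC day 11 replicate 3 carried part of the NC result: without it the difference from day 8 was 1.54 (adjusted p = 0.0767), and BE then exceeded NC at day 11 by 1.63 (adjusted p = 0.049).

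The late difference was seen with 1 probe. NPTX1 has 4 probes on the array, of which 3 passed the filter. The probe used above was detected on 31 of 36 arrays. The other 2, detected on 10 and 8 arrays, also peaked early, with means of 6.83 and 6.43 at day 1 and of 7.13 and 6.74 in DSi at day 3, against 5.05 and 4.46 at day 0. From day 8 on they were above background on no array, and neither showed the late difference. At background they cannot show whether it was there. NC at day 11 against day 8 gave 0.14 (adjusted p = 0.919) and -0.0031 (adjusted p = 0.998). On the authors' values, which average the probes of a gene, the late NC differences were 0.40 against day 8 (adjusted p = 0.619) and 0.44 against DSi (adjusted p = 0.53), BE at day 11 against day 8 gave 0.81 (adjusted p = 0.136), and BE against DSi at day 11 gave 0.96 (adjusted p = 0.0441). The NC and DSi changes over days 3 to 11 then differed by 1.04 (adjusted p = 0.274). With the mean of the passing probes, BE against DSi at day 11 gave 1.09 (adjusted p = 0.0765). With no background correction the NC calls were also lost, at 1.04 against day 8 (adjusted p = 0.0895) and 1.10 against DSi (adjusted p = 0.0506).

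**Figure D2:**
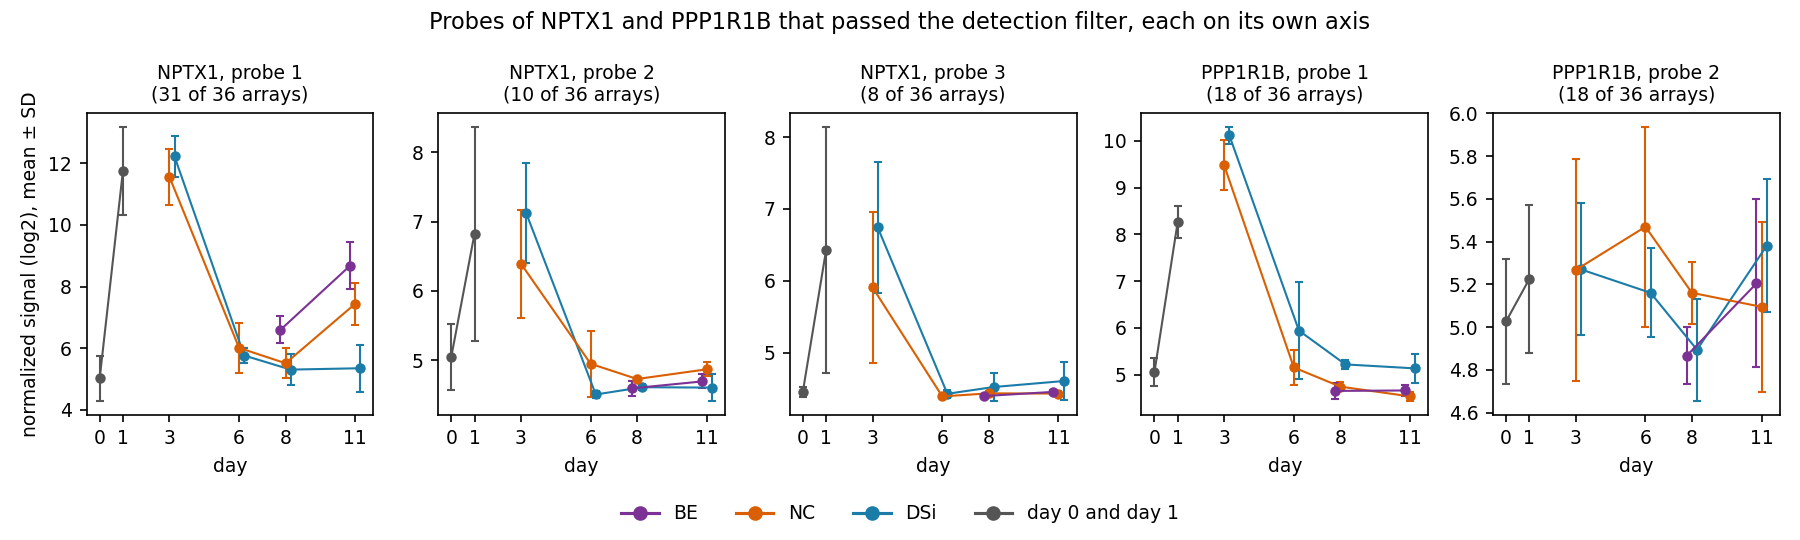
Mean ± SD of log2 normalized signal (vertical axes, each probe on its own scale, n = 3) by day for the probes of NPTX1 and PPP1R1B that passed the filter, with probe 1 of each gene standing for it in the text. The 3 NPTX1 probes share the early peak. Only probe 1 is higher in BE and NC at day 11, when the other NPTX1 probes were above background on no array. Probe 2 of PPP1R1B stays between 4.87 and 5.47 in all groups.

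CUZD1 was on at days 1 and 3 and off afterwards. In NC it stood at 10.02, 10.89 and 11.38 at day 3 and at 4.75, 4.75 and 4.80 at day 6, where no array was above background. In DSi it stood at 10.20, 10.66 and 11.13 at day 3 and at 5.48, 5.13 and 4.79 at day 6, where the first array alone was above background. The groups were far apart in both conditions. The fall in NC was at least 47.9-fold (log2 difference -6.00, SE 0.30, adjusted p = 7.644e-20), and in DSi the log2 signal of CUZD1 fell by 5.53 (SE 0.30, 1 of 3 day 6 arrays above background, adjusted p = 2.509e-18). Of the 24 arrays from day 6 on, 2 were above background, and all 24, at 4.47 to 5.57, lay under the lowest day 0 value of 5.65. No later step and no difference between conditions passed the test, and at day 11 the fall from day 3 in NC was at least 49.4-fold. CUZD1 has 1 probe on the array, and its day 6 calls kept their direction and passed the test under each alternative processing tried.

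PPP1R1B was higher at day 3 than at day 1 and near background by day 6. It stood at 9.04, 10.08 and 9.32 in NC and at 9.91, 10.23 and 10.22 in DSi at day 3, so that all 6 arrays lay above the highest day 1 array, 8.62. At day 6 it stood at 5.17, 5.53 and 4.76 in NC and at 6.30, 6.76 and 4.77 in DSi, with 2 of 3 arrays above background in each. At day 8 it was above background on all 3 DSi arrays (5.13, 5.32 and 5.22) and on none of the NC (4.80, 4.63 and 4.80) or BE arrays (4.84, 4.60 and 4.52). The DSi signals were close to the detection limit, with detection p of 0.018 to 0.044. Neither NC minus DSi (-0.48, adjusted p = 0.5184) nor BE minus DSi (-0.57, adjusted p = 0.3147) passed the test at day 8. The log2 signal of PPP1R1B fell by 4.32 from day 3 to day 6 in NC (SE 0.31, adjusted p = 8.29e-15) and fell by 4.18 in DSi (SE 0.31, adjusted p = 3.943e-14). By day 11 the NC fall from day 3 was at least 20.3-fold.

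Later differences of PPP1R1B between and within the conditions did not pass the test. At day 6 the difference of NC from DSi was -0.79 (SE 0.31, adjusted p = 0.1572) and that of DSi at day 8 from day 6 was -0.72 (SE 0.31, adjusted p = 0.3827). DSi day 6 replicate 3 was the low one of its group, and without it these came to -1.37 (adjusted p = 0.001157) and -1.31 (adjusted p = 0.007754). Of the 3 PPP1R1B probes on the array, 1 was never detected and 1, detected on 18 of 36 arrays, did not follow this course: it gave -0.11 in DSi and 0.20 in NC for day 6 against day 3. On the authors' values the falls were -1.98 in DSi and -1.60 in NC, both past the test.

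CA11 was detected on all 24 later arrays, and it was higher in NC at day 11 than at day 8. In BE it stood at 7.09, 6.73 and 7.36 at day 8 and at 6.63, 5.87 and 6.92 at day 11. In NC it stood at 8.80, 8.44 and 9.31 at day 3, 7.68, 7.88 and 7.51 at day 6, 6.78, 7.03 and 7.09 at day 8, and 8.39, 8.07 and 8.27 at day 11. In DSi the values were 8.69, 8.93 and 9.04 at day 3, 8.42, 8.51 and 7.81 at day 6, 7.95, 8.05 and 8.10 at day 8, and 8.13, 7.29 and 7.14 at day 11. The highest day 0 array, at 5.24, lay under all of them. The day 0 arrays entered the choice of CA11, which favours low values there, so this is a description only. The 3 NC arrays of day 11 lay above all 3 of day 8.

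In NC, the log2 difference of CA11 at day 6 from day 3 was -1.16 (SE 0.24, adjusted p = 0.0002833; 0.0622 under median scaling) and was 1.27 higher at day 11 than at day 8 (2.42-fold, SE 0.24, adjusted p = 0.0002361). In DSi the step from day 3 to day 6 was -0.64 (SE 0.24, adjusted p = 0.06993). That step passed the test with no background correction (adjusted p = 0.0277), an offset of 50 (0.0454), the authors' values (0.035) and the replicate block (0.0469). By day 11 CA11 had fallen by 1.37 in DSi (SE 0.24, adjusted p = 2.271e-05). At day 8 it was lower than in DSi by similar amounts in BE (log2 difference -0.97, adjusted p = 0.004321; without BE day 8 replicate 2, -0.80, adjusted p = 0.0554) and in NC (-1.06, adjusted p = 0.002427). At day 11 BE and NC parted: BE was lower than NC by 3.41-fold (log2 difference -1.77, SE 0.24, adjusted p = 3.29e-07), with no overlap of the arrays, and lower than DSi by 2.07-fold (log2 difference -1.05, adjusted p = 0.001221; 0.0711 under median scaling). NC was higher than DSi at day 11 by 0.72 (SE 0.24, adjusted p = 0.04501), but DSi replicate 1, at 8.13, lay within the NC range and the call was lost without any one of DSi replicates 2 and 3 and NC replicates 1, 2 and 3 (0.53 to 0.81, adjusted p up to 0.266). The call was also lost under median scaling (adjusted p = 0.105), with no detection filter (0.0622) and with only the groups compared (0.103).

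Neuron markers, like CA11 and NPTX1, were higher in NC at day 11 than at day 8. The 6 listed markers that were measured summed to 12518 to 18490 in NC at day 11, with all 6 detected, against 1459 to 1980 in NC at day 8. They summed to 3589 to 4306 in BE and 1523 to 2266 in DSi at day 11. Markers of trophoblast and amnion were higher in BE than in NC or DSi at day 8 already. They then summed to 1720 to 3063 in BE, against 740 to 1166 in NC and 239 to 311 in DSi. At day 11 they summed to 1060 to 5113 in BE, with 5 of 6 detected on all arrays, against 380 to 713 in NC and 207 to 441 in DSi. The part of either list in the late values of the 2 genes was not tested. At day 11 NPTX1 averaged 8.68 in BE and 7.44 in NC, and CA11 averaged 6.47 in BE and 8.24 in NC. In DSi at day 6 CA11 averaged 8.25, where neuron markers summed to 530 to 964.

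TJP3 declined step by step and was lower in BE and NC than in DSi from day 8 on. In BE it stood at 6.66, 6.60 and 6.42 at day 8 and at 4.99, 5.77 and 5.66 at day 11, with 2 of 3 arrays above background at the later day. In NC it stood at 8.61, 7.98 and 8.57 at day 3, 7.85, 7.52 and 7.79 at day 6, 6.75, 6.67 and 6.17 at day 8, and 5.04, 5.49 and 4.99 at day 11, when 1 of 3 arrays was above background. In DSi it stood at 8.72, 8.82 and 8.82 at day 3, 8.78, 9.13 and 8.19 at day 6, 8.15, 8.17 and 7.88 at day 8, and 7.36, 6.79 and 6.68 at day 11. From day 6 on, every NC array lay below every DSi array of the same day, and by day 11 all 3 NC arrays lay below the day 0 range of 5.54 to 5.72.

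TJP3 fell by 1.19 from day 6 to day 8 in NC (SE 0.24, adjusted p = 0.001048; 0.0621 under median scaling) and fell by 1.36 from day 8 to day 11 (SE 0.24, adjusted p = 9.263e-05). It fell by 1.08 from day 8 to day 11 in BE (SE 0.24, adjusted p = 0.001722; 0.0722 under median scaling and 0.0542 on the authors' values) and fell by 1.12 in DSi (SE 0.24, adjusted p = 0.00181). The earlier NC step, from day 3 to day 6, was -0.67 (SE 0.24, adjusted p = 0.04191) and lost its call without NC day 3 replicate 1 or 3 or any one NC day 6 array (-0.55 to -0.73, adjusted p up to 0.159), and under median scaling (-0.29, adjusted p = 0.634). In DSi the same step was -0.09 (SE 0.24, adjusted p = 0.8801).

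NC was lower than DSi in TJP3 at day 6 by 0.98 (log2 difference -0.98, SE 0.24, adjusted p = 0.007726), a call lost without DSi day 6 replicate 2 (adjusted p = 0.111) or NC day 6 replicate 2 (adjusted p = 0.0555) and under median scaling (adjusted p = 0.15). The difference was -1.54 at day 8 (adjusted p = 9.171e-06) and -1.77 at day 11 (3.41-fold, adjusted p = 2.662e-07). BE was lower than DSi by 2.85-fold at day 8 (adjusted p = 8.29e-06) and 2.77-fold at day 11 (adjusted p = 8.962e-06), while BE minus NC was 0.02 at day 8 and 0.30 at day 11 (SE 0.24, adjusted p = 0.9944 and 0.6151). Over days 3 to 11 TJP3 changed by 1.37 more in NC than in DSi (log2 difference of differences -1.37, SE 0.34, adjusted p = 0.007901). That call was lost with no background correction (-0.51, adjusted p = 0.257), with an offset of 50 (-0.80, adjusted p = 0.0911), under median scaling (-1.05, adjusted p = 0.306) and on the authors' values (-0.49, adjusted p = 0.283).

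**Figure D3:**
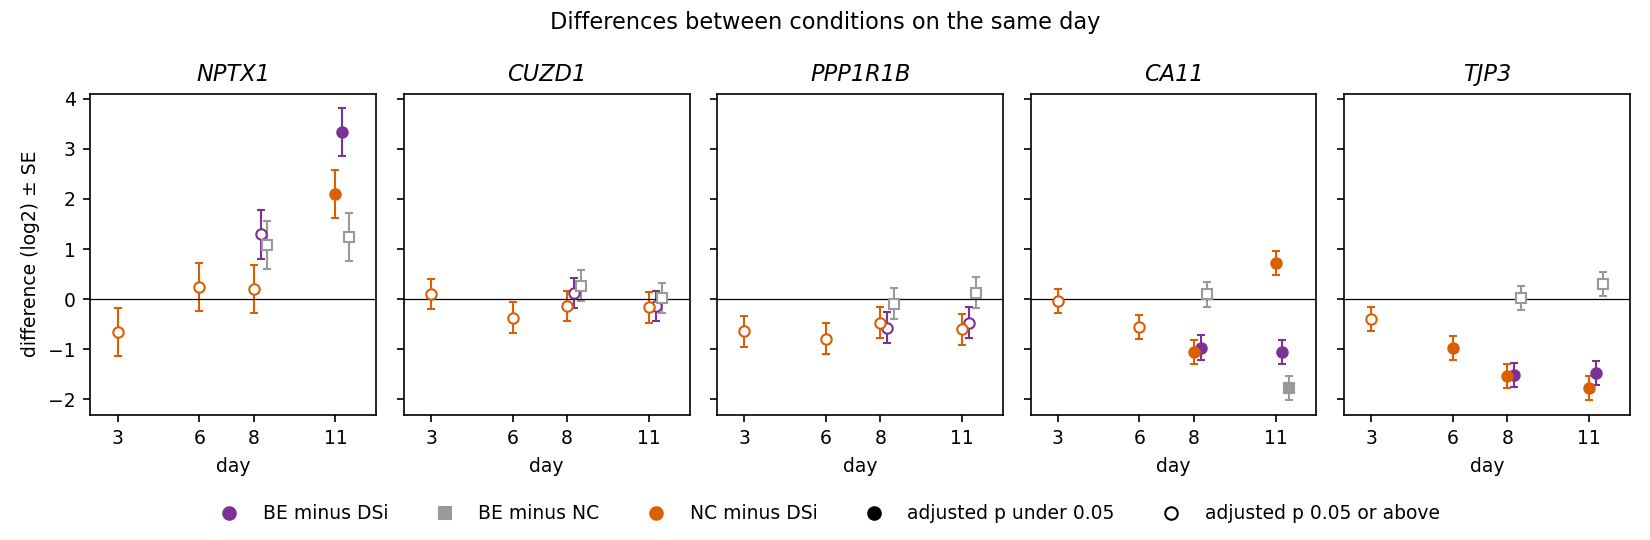
Log2 difference ± SE (vertical axis) between conditions of the same day (horizontal axis) for each gene, with filled points at an adjusted p under 0.05. TJP3 is lower in BE and NC than in DSi from day 6 or 8 on, CA11 in NC changes from -1.06 at day 8 to 0.72 at day 11, and CUZD1 and PPP1R1B have no filled point.

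Ordered by mean, the groups ran as follows. NPTX1 was highest in DSi at day 3 (12.22 ± 0.67, SD, n = 3, as for each group below), followed by day 1 (11.76 ± 1.43) and NC at day 3 (11.56 ± 0.90), which overlapped each other. Then, after a gap, came BE at day 11 (8.68 ± 0.77) and NC at day 11 (7.44 ± 0.69), each overlapping the next group down, and the lowest was day 0 (5.02 ± 0.73). CUZD1 had the same 3 groups on top, from NC at day 3 (10.76 ± 0.69) to day 1 (10.20 ± 0.78), then day 0 (5.76 ± 0.12), separate from all others, and 8 groups at 4.66 to 5.13 that overlapped in sequence. PPP1R1B led in DSi (10.12 ± 0.18) and NC at day 3 (9.48 ± 0.54), which overlapped, followed by day 1 (8.27 ± 0.35), apart from both neighbours, and the lowest was NC at day 11 (4.54 ± 0.10).

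CA11 had no such step among its upper groups. From DSi at day 3 (8.89 ± 0.18) each group overlapped the next down to DSi at day 8 (8.03 ± 0.08), and NC at day 11 (8.24 ± 0.16) stood level with DSi at day 6 (8.25 ± 0.38). BE at day 11 (6.47 ± 0.54) was the lowest group other than day 0 (5.06 ± 0.18), from which it was separate. Day 0 entered the choice of the gene, so that separation is a description only. TJP3 led in DSi at day 3 (8.79 ± 0.06) and day 6 (8.70 ± 0.48), and NC at day 6 (7.72 ± 0.17) and DSi at day 11 (6.95 ± 0.36) were each separate from their neighbours in the order. The lowest were day 0 (5.65 ± 0.10), BE at day 11 (5.47 ± 0.42) and NC at day 11 (5.18 ± 0.27). BE at day 11 overlapped each of the others, but day 0 and NC at day 11 did not overlap.

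Relatives and partners of the 5 genes were counted list by list. Of 7 measured genes of the pentraxin list other than NPTX1, NPTX2, a second neuronal pentraxin, also fell from day 3 to day 6, with log2 differences of -1.84 in DSi (adjusted p = 2.251e-07) and -2.11 in NC (adjusted p = 6.238e-09). Its day 1 minus day 0 difference was 0.11, and its means were 7.79 ± 0.19 at day 1 and 7.68 ± 0.51 at day 0, against 9.73 ± 0.13 in DSi at day 3. The list as a whole had 1 gene higher and 2 lower at day 6 against day 3 in DSi, where 14.5% of all genes were called. Its median log2 difference was -0.17, against -0.01 over all genes. GRIA2, a subunit of the AMPA receptors that neuronal pentraxins gather, was at least 3.41-fold higher in NC at day 11 than at day 8 (adjusted p = 1.9e-09).

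Of 16 measured genes of protein phosphatase 1 and dopamine signalling, 2 were higher and 2 lower at day 6 than at day 3 in DSi (median log2 difference 0.10, against -0.01 over all genes), where 14.5% of all genes were called. In NC 4 were higher and 3 lower (median -0.04), where 22.5% of all genes were called. PPP1R1A, the closest relative of PPP1R1B and likewise an inhibitor of protein phosphatase 1, moved against it, with a rise of 1.91 in DSi (adjusted p = 1.2e-05) and of 2.67 in NC (adjusted p = 6.9e-09) over the step in which PPP1R1B fell. DRD4, a dopamine receptor gene, fell by 1.18 in NC over the same step (adjusted p = 0.00047) and was lower in NC than in DSi at day 11 (log2 difference -3.22, adjusted p = 1e-13). Among 9 measured carbonic anhydrase genes other than CA11, 0 were higher and 2 lower in NC than in DSi at day 11 (median -0.0013, against -0.001 over all genes), where 11.1% of all genes were called. CA4, a membrane-bound carbonic anhydrase, differed by -4.0 between NC and DSi at day 11 (SE 0.29, 1 of 3 NC arrays above background) and was 3.26 higher in BE than in NC, the reverse of CA11. Of 4 measured genes with CUB or zona pellucida domains other than CUZD1, 0 passed the test at day 6 against day 3 in DSi (lowest unadjusted p 0.0331, for TGFBR3), where 14.5% of all genes did. In NC 1, TGFBR3, was 0.59 higher (adjusted p = 0.046), where 22.5% of all genes were called.

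Of 33 measured tight junction genes other than TJP3, 3 were higher and 11 lower at day 6 than at day 3 in DSi (median log2 difference -0.43), where 6.83% of all genes were higher and 7.71% lower. In NC 2 were higher and 14 lower (median -0.44), where 10.9% of all genes were higher and 11.6% lower, and the median over all genes was -0.01 in both. By day 11, 5 were higher and 15 lower than at day 3 in NC (median -0.47), where 13.0% of all genes were higher and 13.4% lower, and 6 were higher and 16 lower in DSi (median -0.56), where 10.2% were higher and 11.0% lower. CLDN10, a claudin, had means of 4.84 ± 0.12 in NC at day 11, above background on no array, and 7.44 ± 0.50 in DSi. It was at least 4.94-fold lower in NC than in DSi at day 11 (adjusted p = 2.2e-12). TJP1, encoding the related scaffold ZO-1, differed by 0.05 between NC and DSi at day 11 (adjusted p = 0.9485) and stood between 8.78 and 9.38 in all groups. CLDN1, a claudin of the skin barrier, went the other way over time and rose by 5.11 in DSi from day 3 to day 11 (adjusted p = 1.2e-16). AMOT, which binds the junction complex, rose by 3.37 in NC (adjusted p = 5.5e-16).

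Of 11 measured genes of the epithelial and mesenchymal list, 5 were higher and 2 lower at day 6 than at day 3 in DSi (median log2 difference 0.50, with 14.5% of all genes called), and 4 were higher and 2 lower in NC (median 0.40, with 22.5% called), against a median of -0.01 over all genes in both. CDH1, the epithelial cadherin, is a single member of this mixed list. It fell by day 11, with log2 differences from day 3 of -2.68 in NC and -3.38 in DSi. The list is not counted here for that comparison, so CDH1 does not stand for its other members. Of 9 Nodal targets, 0 passed the test at day 6 against day 3 in either condition (medians 0.05 in NC and 0.11 in DSi). They were near background on both days, with 0 of the 9 detected on all 3 arrays of a group. At day 3 they summed to 259 to 262 in DSi and 259 to 322 in NC, against 3755 to 8495 at day 0, so a further fall could not have been seen.

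**Figure D4:**
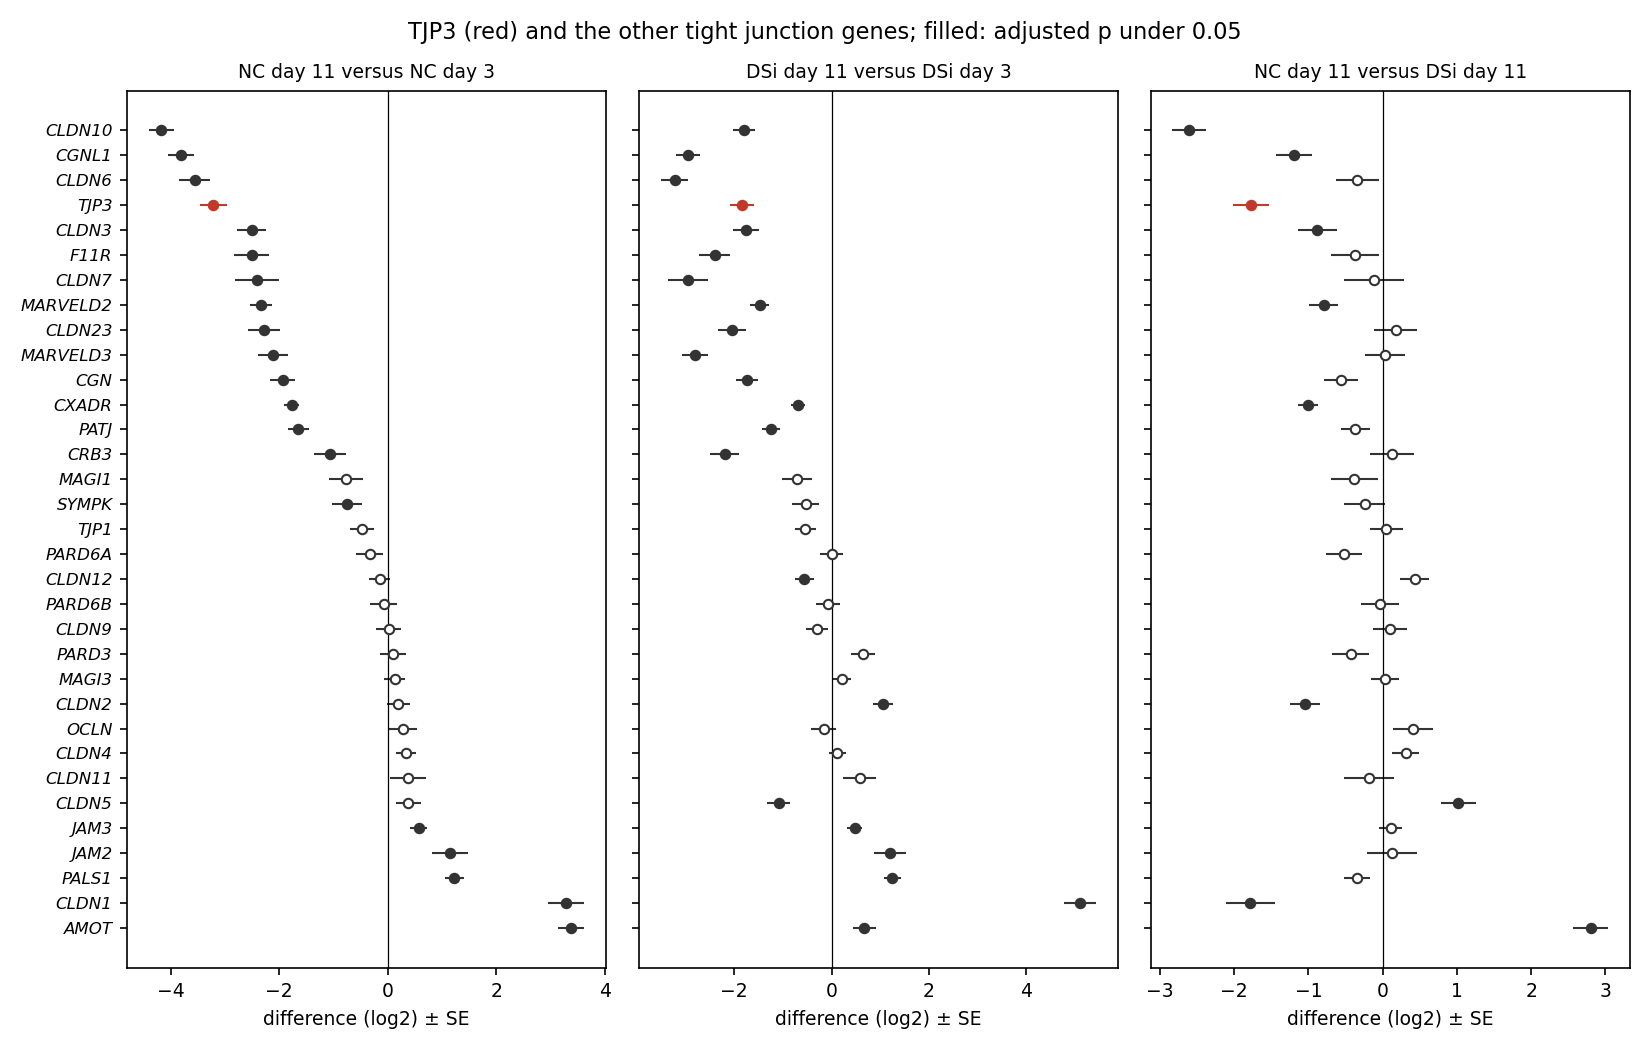
Log2 difference ± SE (horizontal axes) of TJP3, in red, and 32 other tight junction genes (vertical axis) for day 11 against day 3 in NC and in DSi and for NC against DSi at day 11; filled points passed an adjusted p under 0.05. TJP3 lies at -3.21 in NC, -1.84 in DSi and -1.77 between the conditions, among the lowest of the genes for NC over time and for NC against DSi.

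Of 20 nearest neighbours in the RefSeq table, 14 were measured, and their day 1 minus day 0 differences lay between -0.41 and 0.80. At day 6 against day 3, 1 was higher and 2 lower in DSi, where 14.5% of all genes were called, and 1 was higher and 5 lower in NC, where 22.5% were. Beside CA11, NTN5, which encodes a netrin and is the next gene on one side of CA11, was 3.58 higher in NC at day 11 than at day 8 (adjusted p = 7.1e-14), at least 20.3-fold higher in NC than in DSi at day 11, and at least 20.9-fold lower in BE than in NC. Unlike CA11 it was above background on no array at day 1 or day 0. FUT2, on the same side, was above background on 2 arrays at day 1, all 6 at day 3 and none from day 6 on.

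Likeness to the 5 genes was measured as Pearson's r over the 12 group means, among 2108 genes whose group means spanned at least 2 log2 units, and is given as a description, since the points share arrays and normalization and include the day 1 and day 0 means that chose the 5 genes, which in part fixes how alike these are. CUZD1 and PPP1R1B were near each other, at 0.97, and both were most like genes that were lower at day 6 than at day 3, CUZD1 like TMPRSS2 (0.978) and LARGE2 (0.967), PPP1R1B like VIPR1 (0.969) and ALKAL1 (0.964). NPTX1 was most like CUZD1 (0.907), GALNT9 (0.871) and PPP1R1B (0.863). CA11 was most like GAS6 (0.853), ADGRL1 (0.844) and SEMA5B (0.833), and TJP3 most like SALL1 (0.963), ADA (0.949) and SERPING1 (0.936). The pairs CA11 with CUZD1 (0.510) and TJP3 with NPTX1 (0.416) were far less alike.

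The genes most opposed to them were CDH2 for NPTX1 (-0.920), ID1 for CUZD1 (-0.972), GGH for PPP1R1B (-0.960), PLK2 for CA11 (-0.933) and BAZ1A for TJP3 (-0.942). ID1, a target of bone morphogenetic protein signalling, ran opposite to CUZD1. It stood at 7.32, 5.15 and 6.55 at day 1, against 9.80, 10.06 and 9.84 at day 0, averaged 5.14 ± 0.64 in NC and 6.55 ± 0.87 in DSi at day 3, and 10.92 ± 0.24 in NC and 10.84 ± 0.32 in DSi at day 6. ID1 was picked for this opposition over the same group means, so no test is given.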

How the data were processed

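RNA from 36 WA09 samples was read on Illumina beadchips. The deposited files hold, per the file headers, a signal intensity and a detection p-value for each of 47323 probes, and the authors' table holds log2 values per gene symbol. Partek is named in the submitters' processing notes, with no version; no other step is given in the sources used here. Probes were named by matching the authors' log2 values to the intensities: 34610 of 34687 genes matched within 0.02 (root mean square) and 77 were left unnamed. Intensities were background-corrected (normexp, offset 16), then quantile normalized and log2 transformed (limma 3.58.1, R 4.3.3; tables with Python 3.11.15). Probes needed a detection p under 0.05 on 3 arrays, and each gene was read from its probe of highest mean. Group means were fitted over all 36 arrays with limma and empirical Bayes, with Benjamini-Hochberg adjustment within each of 18 comparisons. An "at least" fold sets the detected group against the lowest detected signal, where the other group was above background on no array. The scripts were tested on simulated data.

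The 5 genes and all gene lists were chosen with earlier results of these data known. Named genes were the 5, the next 5 by first-day difference, list members with the largest called changes, nearest neighbours and the 3 most alike and 1 most opposed gene by correlation. Same-numbered replicates deviated together, with every correlation over 0.1, in 7 comparisons, read from the values: titles of same-numbered arrays share a prefix in all 12 groups, whose meaning no label states. The number of arrays limits the precision. Alternatives covered background, scaling, filter, probe choice, the authors' values, the replicate block, the span of adjustment, the arrays fitted and each replicate left out. One gene of the tight junction list is counted but not reported by name here.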

Additional observations from a re-analysis of the deposited data

Results flagged for a closer look

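The change from day 3 to day 11 differed between NC and DSi for 2 of the 5 genes by a test of the difference itself. For NPTX1 the NC change minus the DSi change was 2.76 (adjusted p = 0.006467 by limma), and all 3 NC arrays of day 11 lay above all 3 DSi arrays. That call was lost with the mean of the gene's probes (1.47, adjusted p = 0.187) and on the authors' values (1.04, adjusted p = 0.274). For TJP3 it was -1.37 (adjusted p = 0.007901 by limma), and all 3 NC arrays of day 11 lay below all 3 DSi arrays. That call was lost with no background correction, an offset of 50, median scaling and the authors' values (-0.49 to -1.05, adjusted p up to 0.306).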

How the results depend on the processing

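Of 90 tested values of the 5 genes, 38 passed the test, and 24 of these kept their direction and call under every alternative other than another probe. Probes added after seeing the data turned the sign of some values. For NPTX1 these were -0.0031 (NC day 11 against day 8), -0.174 (NC against DSi, day 11) and -0.1505 (BE against DSi, day 11). That NPTX1 probe was above background on no array of these groups, so the sign of its differences cannot be read. For PPP1R1B they were 0.1108 (DSi day 11 against day 3) and 0.2023 (NC day 6 against day 3), and the cause was not tested.

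Median scaling moved the counts of all genes called to 1562 and 2923 (DSi days 6 and 11 against day 3; 3317 and 4832 before), 704 (NC day 8 against 6; 1190), 1314 (BE day 11 against 8; 2197), 49, 604 and 1570 (NC against DSi at days 3, 6 and 11; 110, 1230 and 2540), 281 (BE against NC, day 8; 424) and 785 (NC and DSi changes over days 3 to 11; 1242). It left 3 of the 5 genes called in NC day 6 against 3, 0 in NC day 8 against 6, 1 in BE day 11 against 8, 0 in NC against DSi at day 6 and 1 in the difference of changes. That last count was also 1 with no background correction, an offset of 50 or the mean of probes, and 0 on the authors' values. BE day 11 against 8 had 1 with the mean of probes and 0 on the authors' values. With p adjusted over all comparisons, counts were 593 (DSi day 8 against 6; 220), 344 (NC against DSi, day 3) and 726 (BE against NC, day 8). With only the groups compared they were 960 (DSi day 11 against 8; 1567), 42 and 1682 (NC against DSi, days 3 and 11) and 806 (difference of changes), with 2 of the 5 called in BE against NC at day 11 and 4 in BE against DSi at day 8; fewer samples entered these fits.

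The replicate block, with numbers pairing arrays in 7 comparisons, changed no call of the 5 there. Elsewhere it called CA11 in NC day 8 against 6 (adjusted p = 0.0464, so that 2 of the 5 were called, as also with p over all comparisons or only the groups compared), DSi day 6 against 3 (0.0469) and NC day 11 against 3 (0.0406), and NPTX1 in BE against DSi at day 8 (0.0384).

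Leaving out each replicate in turn gave 80 to 252 genes in DSi day 8 against 6 with 0 to 1 of the 5, 978 to 1423 in DSi day 11 against 8 with 1 to 2, 713 to 1045 in NC day 8 against 6, 61 to 165 in NC against DSi at day 3, and 254 to 313 in BE against NC at day 8. It gave 0 to 2 of the 5 in NC against DSi at day 6, and 1 to 2 in BE against DSi at day 8 and in BE against NC at day 11. Signals near background limit NPTX1, CUZD1 and PPP1R1B after day 6, where differences are compressed.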
